A study of Mus musculus with 3 samples.

Results

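The 35 genes described here encode the enzymes of glycolysis and proteins of the response to low oxygen, and they were taken by gene name from the 27745 gene names on the array. They comprise 18 glycolytic enzyme genes, 5 genes of transport and flux control, 11 hypoxia-induced genes and Hif1a, which encodes the oxygen-regulated subunit of the transcription factor HIF-1. After Eif4g3 siRNA, the enzyme mRNAs were lower in heavy polysomes relative to other genes, with a median log2 ratio of -0.37, and 16 of 18 lay below 0. The hypoxia-induced genes had a median of -0.07 there, and 7 of 11 lay below 0, where 51.7% of all genes did. In the top fraction the enzymes lay on the other side, with a median of 0.20 against -0.12 for the hypoxia-induced genes.

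Glycolysis turns glucose into pyruvate through a chain of cytosolic enzymes, and lactate dehydrogenase turns pyruvate into lactate. When oxygen is low, the HIF-1 alpha subunit is no longer hydroxylated and degraded, and HIF-1 then raises transcription of most glycolytic enzyme genes, of carriers for glucose and lactate, and of genes such as Bnip3, Adm and Egln3. How much of each enzyme is made also depends on how many ribosomes its mRNA carries, which is what a polysome gradient separates.

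The cells were lymph node stromal cells cultured from BALB/c mice, which form the supporting network of a lymph node. One set of plates received 400 pmol of siRNA against Eif4g3, the gene of the translation initiation scaffold eIF4GII, and the other set received 400 pmol of control siRNA. Both were harvested at 48 h, the cells of 7 plates per siRNA were pooled, and lysates were spread on a 10% to 60% sucrose gradient that was collected as top, light polysome and heavy polysome RNA. Each fraction was read on 1 Agilent array carrying both siRNAs in different dyes, without a dye swap or a second pool, so dye, array and pool cannot be told apart from siRNA and fraction, and no p-value was computed. In bulk RNA of this kind, fewer cells of a type and less RNA per cell cannot be told apart either.

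Eif4g3 itself, the siRNA target, had log2 ratios of -0.43 ± 0.16, -1.06 ± 0.16 and -1.77 ± 0.19 in top, light and heavy RNA. The error given here and below is the scanner software's error for the spots, which holds no biological spread. Between 10944 and 14404 genes were measured per array, meaning well above background in both channels, and 32, 34 and 35 of the 35 genes were measured in the top, light and heavy fractions. Before normalization the 2 channels were unequal in the polysome fractions, with an upper-quartile signal of 367 for Eif4g3 siRNA against 1078 for control siRNA in heavy polysomes, and 686 against 288 in light polysomes. Normalization removes such a gap, so every ratio is relative to the other genes of its array. Of 12 markers of fibroblastic stromal cells, 11 were above background in every fraction and Lum was in neither channel. Ptprc, which marks leukocytes, was in neither channel on all 3 arrays. Of 8 endothelial markers on the array, 0, 3 and 3 were measured in the top, light and heavy fractions. Above background in heavy RNA were 3 of them with Eif4g3 siRNA and 6 with control siRNA, and Pecam1 was in neither channel on all 3 arrays.

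HIF-1 binds DNA at the core ACGTG or GCGTG, and the RefSeq promoter windows of these genes were searched for both cores on either strand over the 250 bases before the start of transcription (GRCm38.p6). A window was found for 33 of the 35 genes, Bnip3l and Ndrg1 having none in the table. At least 1 core was in a window of 15 of 18 enzymes, 9 of 9 hypoxia-induced genes and 5 of 5 genes of transport and flux control. Of 7925 genes measured in the heavy fraction with a window, 60.5% had one, and of all 27025 genes with a window 41.5%. The windows held a median of 60.4% G and C, against 59.6% for genes measured in the heavy fraction. The core ACGTG alone was in 7 of 18 enzymes and 8 of 9 hypoxia-induced genes, against 24.8% of the 7925 genes. A match is a description of these letters and not a site of binding.

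The windows of 6 genes are shown because these genes lie at the ends of the comparison, a choice made after their values were seen. They are Eno1, Pfkl and Pkm2, whose log2 ratio was lower by at least 2-fold in heavy polysomes than in the top fraction (heavy minus top), Adm, lower at 2-fold in heavy polysomes, and Bnip3 and Ero1l, the highest in heavy minus top. Capitals mark ACGTG or GCGTG on the printed strand or, as CACGT or CACGC, on the other. Where a gene has several windows, 1 of them is shown.
Eno1, chr4:150236947-150237196, plus strand: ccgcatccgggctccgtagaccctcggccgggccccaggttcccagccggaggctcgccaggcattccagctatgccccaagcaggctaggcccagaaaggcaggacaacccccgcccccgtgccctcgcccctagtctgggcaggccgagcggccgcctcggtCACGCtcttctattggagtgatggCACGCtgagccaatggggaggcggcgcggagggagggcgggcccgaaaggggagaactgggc
Pfkl, chr10:78009808-78010057, minus strand: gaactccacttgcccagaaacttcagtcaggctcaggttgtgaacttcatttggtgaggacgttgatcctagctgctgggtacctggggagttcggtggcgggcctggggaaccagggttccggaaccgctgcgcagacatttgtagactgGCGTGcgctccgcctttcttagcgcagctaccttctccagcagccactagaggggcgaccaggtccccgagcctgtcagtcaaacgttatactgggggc
Pkm2, chr9:59656977-59657226, plus strand: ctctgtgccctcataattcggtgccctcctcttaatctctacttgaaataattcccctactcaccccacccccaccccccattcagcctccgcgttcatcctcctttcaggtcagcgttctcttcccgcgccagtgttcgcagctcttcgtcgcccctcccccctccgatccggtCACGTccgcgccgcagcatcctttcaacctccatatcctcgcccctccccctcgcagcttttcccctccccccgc
Adm, chr7:110627407-110627656, plus strand: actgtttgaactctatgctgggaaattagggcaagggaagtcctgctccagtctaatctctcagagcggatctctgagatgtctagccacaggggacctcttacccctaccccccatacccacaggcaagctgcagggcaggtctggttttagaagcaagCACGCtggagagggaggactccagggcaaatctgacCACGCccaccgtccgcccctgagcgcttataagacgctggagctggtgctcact
Bnip3, chr7:138909507-138909756, minus strand: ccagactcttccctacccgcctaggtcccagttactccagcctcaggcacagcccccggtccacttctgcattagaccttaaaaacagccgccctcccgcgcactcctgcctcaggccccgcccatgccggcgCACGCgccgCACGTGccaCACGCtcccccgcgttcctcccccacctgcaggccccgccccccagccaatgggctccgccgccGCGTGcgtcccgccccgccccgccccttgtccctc
Ero1l, chr14:45318573-45318822, minus strand: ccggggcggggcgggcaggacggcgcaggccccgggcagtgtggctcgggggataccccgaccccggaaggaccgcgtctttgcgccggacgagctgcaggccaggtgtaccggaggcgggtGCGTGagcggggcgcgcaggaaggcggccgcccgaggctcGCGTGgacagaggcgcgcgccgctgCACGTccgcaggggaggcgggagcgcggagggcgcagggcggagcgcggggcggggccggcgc

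The Bnip3 window held 5 matches, of which 2 overlap on opposite strands in CACGTG, and the Ero1l window held 3. The Adm window and the Eno1 window shown held 2 of the core GCGTG each. Pfkl had 1 GCGTG, 99 bases before the start, and the Pkm2 window shown had 1 ACGTG, 75 bases before the start, while the other Pkm2 window, chr9:59656326-59656575, held no match. The genes shown were picked for their values. A match was in 30 of the 33 genes with a window, against 60.5% of genes measured in the heavy fraction. Matches at both ends of the heavy minus top difference therefore say nothing about that difference.

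By their median, the enzyme genes were above the other genes in the top fraction and below them in heavy polysomes. Their median log2 ratios in top, light and heavy RNA were 0.20, 0.04 and -0.37, against 0.0016, 0.015 and -0.014 over all measured genes. In the heavy fraction 16 of 18 enzymes lay below 0, where 51.7% of all genes did. In the top fraction 3 of 17 enzymes and 7 of 9 hypoxia-induced genes lay below 0, against 49.6% of all genes, and in the light fraction 8 of 18 and 3 of 10 did, against 47.4%. No gene of the 35 reached 2-fold in the top or light fraction, where 0.694% and 0.688% of all genes did. Among the 17 enzymes measured on all 3 arrays, 11 had a ratio that was lower in the light than in the top and lower again in the heavy fraction, an order found in 18.0% of 10658 genes. These ratios are means over the probes measured on each array, which can differ between arrays. Hk1, counted among the 11, was higher in light (0.19) than in top RNA (0.15) on its only probe measured at the top. In 13 of the 17 the ratio was above 0 in the top and below 0 in the heavy fraction, against 22.2% of all genes.

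**Figure D1:**
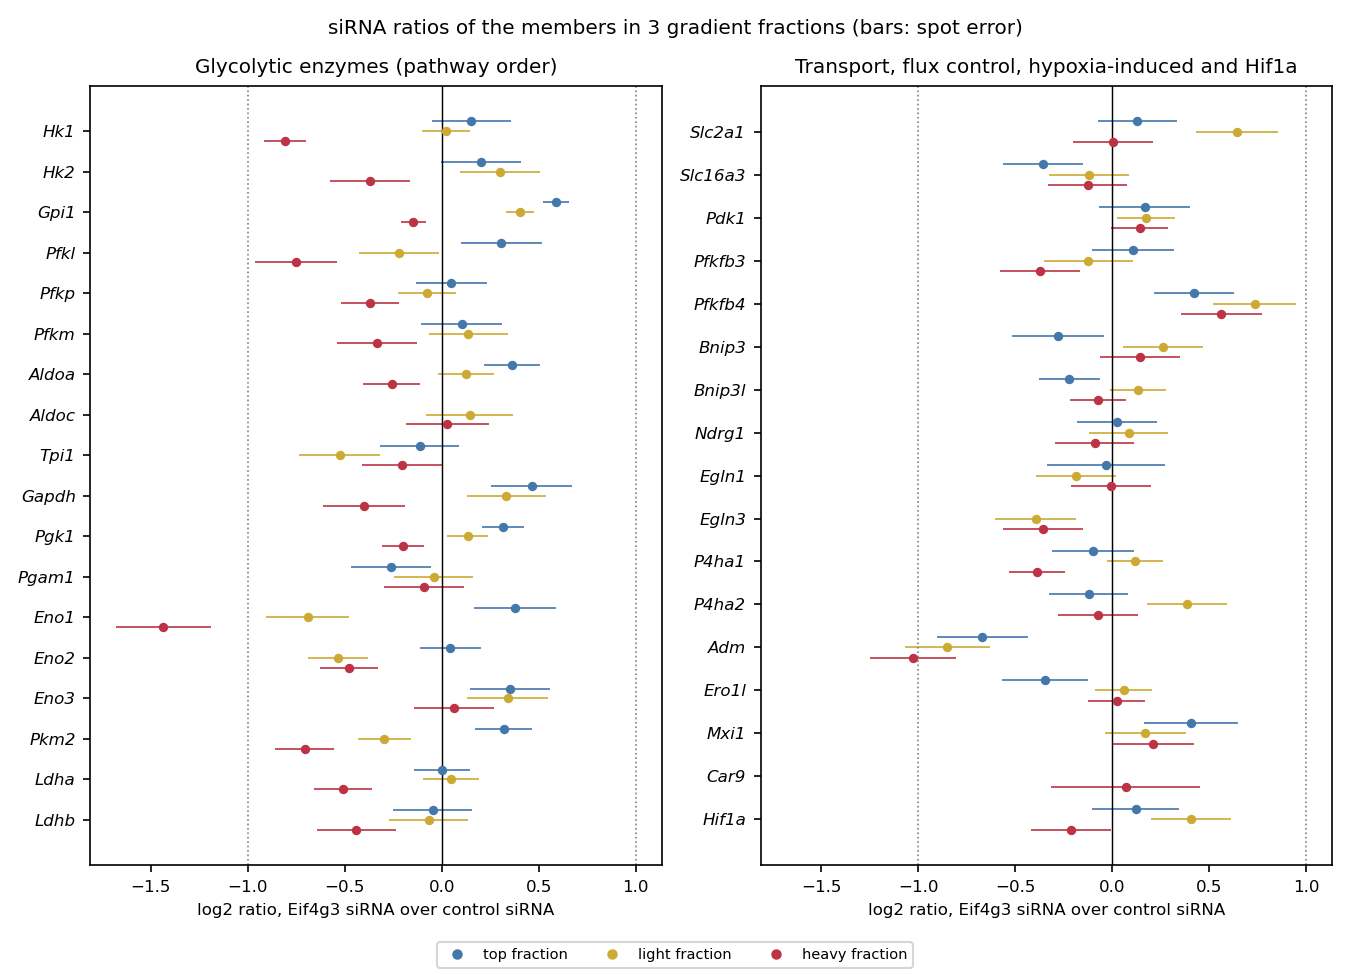
Log2 of Eif4g3 siRNA signal over control signal, 1 line of the plot per gene, with colours for the top, light and heavy fractions, horizontal bars for the spot error and dotted lines at 2-fold, from 1 array per fraction. Most enzymes have their heavy value left of 0, with Eno1 at -1.43, whereas Adm is the one hypoxia-induced gene that reaches the left dotted line, at -1.03 in the heavy fraction.

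Eno1 encodes alpha-enolase, which makes phosphoenolpyruvate, and it had the lowest heavy ratio of the 35 genes. Its normalized signal was 261 with Eif4g3 siRNA and 201 with control siRNA in the top fraction, 850 and 1372 in the light, and 1673 and 4524 in the heavy fraction. The siRNA signal was thus above control at the top of the gradient and below it in both polysome fractions. The log2 ratios were 0.38 ± 0.21, -0.69 ± 0.22 and -1.43 ± 0.24, and the last is 2.70-fold lower. Eno1 and Adm were the 2 genes of the 35 that were lower at 2-fold in the heavy fraction, where 0.305% of all 14404 genes were, and no gene of the 35 was higher at 2-fold there, against 0.507% of all genes. In light minus top Eno1 was also lower at 2-fold, at -1.07 ± 0.30, where 0.739% of all genes were. Its single probe maps to chr4:149087825-149088050 on the plus strand (mm8); exon and UTR annotation of that build was not used here. The files list a second RefSeq transcript for it, so signal of a near-identical copy cannot be separated. The other enolase genes have their own probes. Eno2, the neuronal form, had 0.04 ± 0.16, -0.53 ± 0.15 and -0.48 ± 0.15, with both probes alike, and Eno3, the muscle form, had 0.35 ± 0.21, 0.34 ± 0.21 and 0.06 ± 0.20.

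In the early steps of the pathway most genes had their lowest ratio in the heavy fraction. Hk1 and Hk2 encode hexokinases, which trap glucose in the cell as glucose 6-phosphate. Hk1 had 797 with Eif4g3 siRNA and 716 with control siRNA in the top fraction, 268 and 264 in the light, and 468 and 818 in the heavy fraction. Its heavy log2 ratio was -0.81 ± 0.11, and 5 measured probes ranged from -1.21 to -0.23. With the scanner software's ratio Hk1 was lower at 2-fold there, at -1.06, and with processed signals and loess at -1.04. Of all genes, 0.715% and 0.660% were lower at 2-fold there under these settings. Only 1 of the 5 Hk1 probes was measured at the top, so signals of the fractions come from different probes. On that probe the log2 ratios were 0.15, 0.19 and -0.72 in top, light and heavy RNA. Hk2 had log2 ratios of 0.20 ± 0.21, 0.30 ± 0.21 and -0.37 ± 0.21.

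Gpi1, which encodes glucose phosphate isomerase, carries a probe printed in 10 spots per array and therefore the tightest value of the group. Its signal was 9613 with Eif4g3 siRNA and 6387 with control siRNA in the top fraction, 50022 and 37827 in the light, and 83198 and 92124 in the heavy fraction. Over spots the log2 ratio averaged 0.59 ± 0.05 at the top (SD, 10 spots), 0.40 ± 0.02 in light polysomes (SD, 8 spots) and -0.15 ± 0.03 in heavy polysomes (SD, 10 spots). The spots of the 3 arrays did not overlap, the lowest top spot being 0.54 and the highest heavy spot -0.07. These spots share 1 RNA sample per channel and are technical.

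Phosphofructokinase commits sugar to glycolysis, and its 3 genes differed in size of the ratio. Pfkl, the liver form, had 227 with Eif4g3 siRNA and 184 with control siRNA in the top fraction, 1464 and 1706 in the light, and 2731 and 4590 in the heavy fraction. Its log2 ratios were 0.31 ± 0.21, -0.22 ± 0.21 and -0.75 ± 0.21. Pfkp, the platelet form, had 0.05 ± 0.18, -0.08 ± 0.15 and -0.37 ± 0.15, although its probes gave -0.41 and 0.26 in the light fraction. Pfkm, the muscle form, had 0.10 ± 0.21, 0.14 ± 0.20 and -0.33 ± 0.21. Aldoa, the main aldolase of most tissues, had 0.36 ± 0.15, 0.13 ± 0.14 and -0.26 ± 0.15. Aldoc was above background in neither channel at the top and had 0.14 ± 0.22 and 0.03 ± 0.22 in light and heavy polysomes. Tpi1, which encodes triose phosphate isomerase, had -0.11 ± 0.20, -0.53 ± 0.21 and -0.21 ± 0.21. Its lowest ratio was in the light fraction, as was that of Eno2.

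The later steps, which yield ATP and pyruvate, held the remaining enzymes with a wide gap between fractions. Gapdh, the dehydrogenase often used as a loading control, had 1422 with Eif4g3 siRNA and 1031 with control siRNA in the top fraction, 25655 and 20353 in the light, and 58529 and 77243 in the heavy fraction. The siRNA signal was above control in the first and second of these and below it in the heavy fraction. The log2 ratios were 0.46 ± 0.21, 0.33 ± 0.21 and -0.40 ± 0.21. Pgk1, the phosphoglycerate kinase gene on the X chromosome, had 0.32 ± 0.11, 0.13 ± 0.11 and -0.20 ± 0.11, from 2 overlapping probes. Pgam1, which encodes phosphoglycerate mutase, had -0.26 ± 0.21, -0.04 ± 0.20 and -0.09 ± 0.20. For Pgk1 and Pgam1 the files list predicted transcripts of near-identical copies, so their values are uncertain as to the source gene.

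Pkm2 is the array's name for the pyruvate kinase gene Pkm. Its 2 probes measured on both arrays gave 0.31 and 0.32 in the top fraction and -0.82 and -0.59 in the heavy fraction. Averaged over measured probes the log2 ratios were 0.32 ± 0.15, -0.30 ± 0.14 and -0.71 ± 0.15. Ldha and Ldhb encode the subunits of lactate dehydrogenase. Ldha had 2131 with Eif4g3 siRNA and 2129 with control siRNA in the top fraction, 28946 and 27986 in the light, and 44466 and 63328 in the heavy fraction. The channels of Ldha were near each other in top and light RNA, at 0.0016 ± 0.14 and 0.05 ± 0.14, and in the heavy fraction its log2 ratio was -0.51 ± 0.15, and Ldhb had -0.44 ± 0.21 there, with -0.05 ± 0.20 and -0.07 ± 0.20 in top and light RNA.

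**Figure D2:**
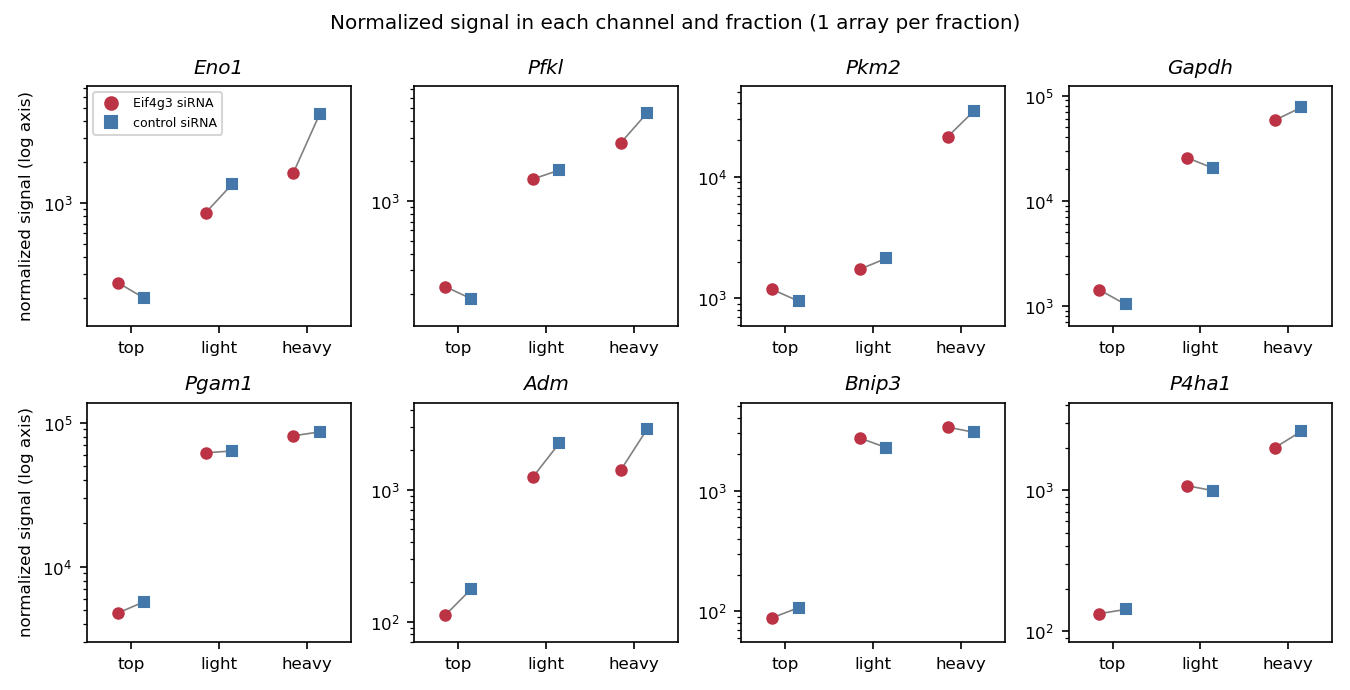
Normalized signal on a log axis for 8 genes in the top, light and heavy fractions, with Eif4g3 siRNA (circle, left) joined to control siRNA (square, right) of the same array. For Eno1, Pfkl, Pkm2 and Gapdh the line slopes down at the top (siRNA higher) and up in the heavy fraction (siRNA lower), whereas for Adm the siRNA signal is the lower one in all 3 fractions. Measured probes numbered 2, 3 and 2 for Pkm2 and 1, 2 and 2 for P4ha1, so their levels cannot be compared between all fractions.

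Of the 5 genes of transport and flux control, Pfkfb3 alone had a ratio that was lower in light than in top RNA and lower again in heavy RNA. Slc2a1, which encodes the glucose carrier GLUT1, had 41957 with Eif4g3 siRNA and 26868 with control siRNA in the light fraction, and 49810 and 49624 in the heavy fraction. Its log2 ratios were 0.13 ± 0.21, 0.64 ± 0.21 and 0.01 ± 0.20. Pfkfb4, whose enzyme sets the level of the phosphofructokinase activator fructose 2,6-bisphosphate, was above control in every fraction, with 1717 against 1281, 27056 against 16254 and 36648 against 24804. The log2 ratios of Pfkfb4 were 0.42 ± 0.21, 0.74 ± 0.21 and 0.56 ± 0.21. Its relative Pfkfb3 had 0.11 ± 0.21, -0.12 ± 0.23 and -0.37 ± 0.21. Slc16a3, which encodes the lactate exporter MCT4, had -0.36 ± 0.21, -0.12 ± 0.21 and -0.13 ± 0.21. Pdk1, whose kinase shuts pyruvate dehydrogenase, had 0.17 ± 0.23, 0.17 ± 0.15 and 0.14 ± 0.15. Its 2 probes disagreed, at -0.17 and 0.52 in light and at -0.05 and 0.34 in heavy RNA, and only the higher one was measured at the top.

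Hypoxia-induced genes outside glycolysis had heavy ratios from -1.03 for Adm to 0.21 for Mxi1, with P4ha1 at -0.39 and Egln3 at -0.36 the lowest after Adm. Adm encodes the vasodilator peptide adrenomedullin. Its signal was 111 with Eif4g3 siRNA and 177 with control siRNA in the top fraction, 1242 and 2238 in the light, and 1400 and 2854 in the heavy fraction. The siRNA signal was the lower one in all 3 fractions. The log2 ratios were -0.67 ± 0.23, -0.85 ± 0.22 and -1.03 ± 0.22, the last being 2.04-fold lower, and with the scanner software's ratio the heavy value was -0.91, short of 2-fold, and the top value -1.14.

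The mitophagy receptor genes Bnip3 and Bnip3l had their lowest ratio at the top. Bnip3 had 88.2 with Eif4g3 siRNA and 107 with control siRNA in the top fraction, 2723 and 2269 in the light, and 3355 and 3038 in the heavy fraction. Its log2 ratios were -0.28 ± 0.24, 0.26 ± 0.21 and 0.14 ± 0.20, and predicted copies are listed for its probe. Bnip3l had -0.22 ± 0.16, 0.13 ± 0.15 and -0.07 ± 0.14, with both probes alike in the heavy fraction. Ero1l, now Ero1a, encodes an oxidase that forms disulphide bonds in the endoplasmic reticulum, and had -0.35 ± 0.22, 0.06 ± 0.15 and 0.02 ± 0.15. Its 2 probes disagreed in the heavy fraction, at -0.32 and 0.36, and only the higher one was measured at the top. For the higher one the files also list a predicted transcript.

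Of the collagen prolyl hydroxylase genes, P4ha1 had -0.10 ± 0.21, 0.12 ± 0.15 and -0.39 ± 0.15, and P4ha2 had -0.12 ± 0.21, 0.39 ± 0.21 and -0.07 ± 0.21. The 2 probes of P4ha1 gave -0.56 and -0.21 in the heavy fraction, and only the lower one was measured at the top. The higher one lay within the spot error of P4ha2. The oxygen sensor gene Egln1 had -0.03 ± 0.30, -0.19 ± 0.21 and -0.0052 ± 0.20. Its relative Egln3 was above background in the control channel alone at the top, so no ratio is given there, and had -0.39 ± 0.21 and -0.36 ± 0.21 in the polysome fractions. Ndrg1, a stress-induced gene, had 0.02 ± 0.21, 0.09 ± 0.20 and -0.09 ± 0.20, and Mxi1, which encodes an antagonist of MYC, had 0.41 ± 0.24, 0.17 ± 0.21 and 0.21 ± 0.21. Car9, the gene of carbonic anhydrase 9 and one of the classical hypoxia markers, was above background in the siRNA channel alone in the top and light fractions and measured in the heavy fraction at 0.07 ± 0.38. Hif1a itself had 2479 with Eif4g3 siRNA and 1868 with control siRNA in the light fraction, and 3678 and 4259 in the heavy fraction. Its log2 ratios were 0.12 ± 0.22, 0.41 ± 0.21 and -0.21 ± 0.21.

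Setting the heavy against the top ratio of the same probes separated the enzymes from the hypoxia-induced genes most. The heavy minus top difference of log2 ratios had a median of -0.52 over 17 enzymes and of 0.03 over 9 hypoxia-induced genes, a gap of -0.55, against -0.00035 over 10723 genes. Of the enzymes, 16 of 17 were below 0, where 50.1% of all genes were, and 11 lay below the lowest hypoxia-induced gene, P4ha1 at -0.46 ± 0.30. That P4ha1 value rests on 1 probe, the lower of its 2 in the heavy fraction. Of the 9 hypoxia-induced genes 4 were below 0, and Ero1l at 0.71 ± 0.30 and Bnip3 at 0.42 ± 0.31 lay above every enzyme, 2 genes whose promoter windows are printed above. Ero1l rests on 1 probe there, and its difference was 0.23 without the background filter and -0.30 with each array centred on all its spots. A predicted transcript is also listed for that probe, so the source of its signal is uncertain. The highest enzyme was Pgam1 at 0.17 ± 0.29. A median of 0.14 was found over the 5 genes of transport and flux control, and Hif1a had -0.33 ± 0.30. Both ends of this difference rest on 1 array each, and the ratios are more compressed on the dim top array than on the heavy one.

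Lower at 2-fold in this difference were Eno1 at -1.81 ± 0.32, Pfkl at -1.06 ± 0.30 and Pkm2 at -1.02 ± 0.21, where 0.699% of all genes were, and no gene of the 35 was higher at 2-fold, against 0.811% of all genes. Hk1 (-0.88 ± 0.30), Gapdh (-0.86 ± 0.30), Gpi1 (-0.74 ± 0.09) and Aldoa (-0.62 ± 0.21) came next. Without Eno1, Pfkl and Pkm2, a choice made after their values were seen, the enzyme median was -0.51. Pfkl and Pkm2 lie close to the 2-fold line, and Pfkl fell short of it with the scanner software's ratio (Pfkl at -0.96) and Pkm2 without the background filter (-0.87). With the software's ratio the gap between the group medians was -0.96, and Gapdh at -1.13 and Ero1l at 1.14 then passed 2-fold. Of all genes, 1.45% were then lower and 2.81% higher at 2-fold. The 11 fibroblastic stromal markers had median log2 ratios of -0.22, 0.03 and -0.48 in the top, light and heavy fractions, with summed signals of 307532 with Eif4g3 siRNA against 414187 with control siRNA in the heavy fraction. Of 7 smooth muscle and pericyte markers, 4, 5 and 5 were measured, with medians of 0.22, 0.39 and 0.15. The part of these markers in the enzymes' values was not tested.

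**Figure D3:**
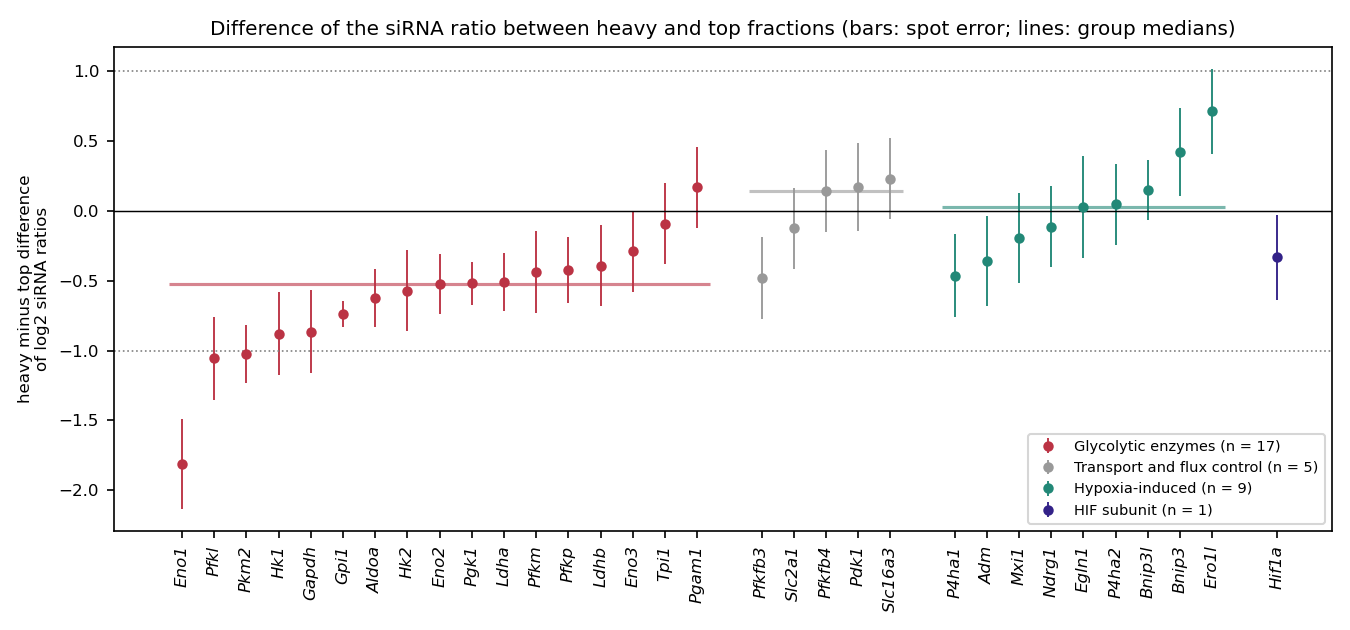
Heavy minus top difference of the log2 siRNA ratios (vertical axis) for the genes measured on both arrays, in order of size within each group, with bars for the spot error, coloured lines for the group medians and dotted lines at 2-fold. The enzymes lie between -1.81 and 0.17 with a median of -0.52, and the hypoxia-induced genes between -0.46 and 0.71 with a median of 0.03.

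The gap between enzymes and hypoxia-induced genes kept its sign under each processing alternative in the top fraction, in the heavy fraction and in the heavy minus top difference, while its size and the place of 0 moved. The alternative with bright probes only kept 15 of 17 enzymes but 3 of 9 hypoxia-induced genes in the top fraction and in the difference. The other hypoxia-induced genes measured at the top were dimmer there than the median measured probe. Their side of the gap thus rests mostly on dim top values. In the heavy fraction it ran from -0.46 to -0.24, and in the heavy minus top difference from -0.96 to -0.42. The hypoxia-induced median alone changed sign with the processing, from -0.92 to 0.03 in the heavy fraction and from -0.89 to 0.25 in the difference. The lowest of these values came from centring each array on the median of all its spots in place of loess, which moved the median of all genes to -0.73 in the heavy fraction and -0.87 in the difference. Relative to those medians, the enzymes stood at -0.44 and -0.45 and the hypoxia-induced genes at -0.19 and -0.02. In the light fraction the gap was -0.07 and changed sign with the processing, from -0.08 to 0.09.

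**Figure D4:**
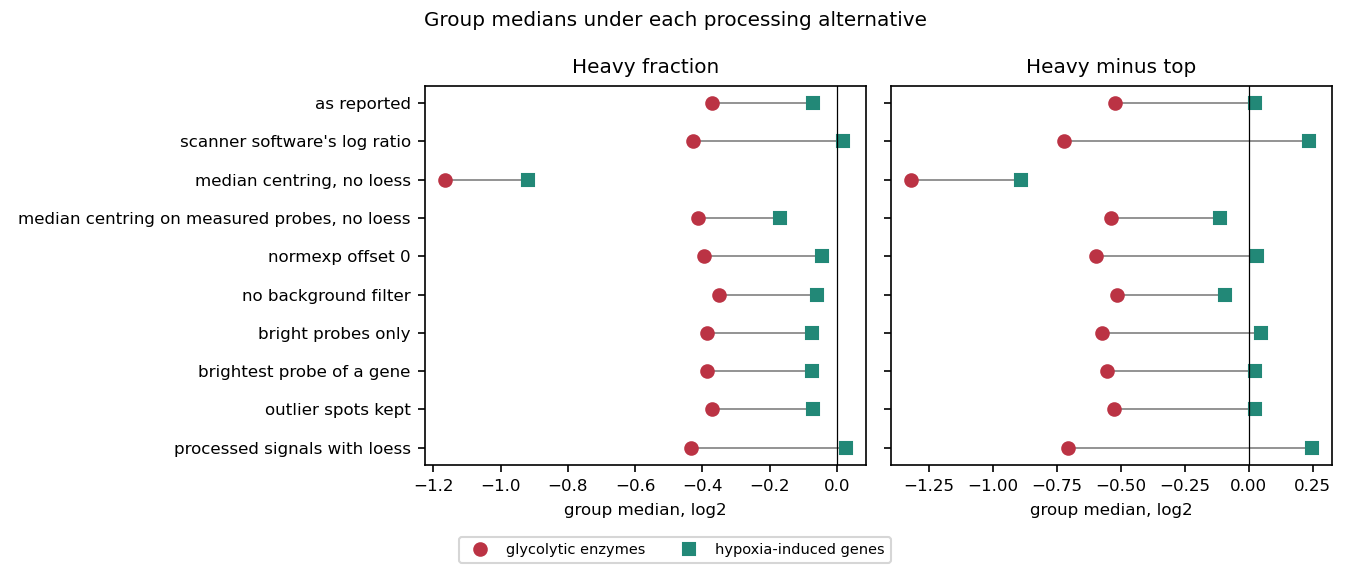
Median log2 value of the glycolytic enzymes (circles) and the hypoxia-induced genes (squares) in the heavy fraction and in the heavy minus top difference, for the reported values (first line) and each alternative below it. The circle lies left of the square on every line, and centring over all spots without loess moves both groups to the left, to -1.16 and -0.92 in the heavy fraction.

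In control cells most of the 35 mRNAs lay towards heavy polysomes. The log2 signal of heavy over top in the control channel, relative to each array's signal distribution, had a median of 1.004 over 32 genes, with 2 below 0, against -0.07 over all genes, of which 52.7% were below 0. Gapdh had the highest value, 3.54, followed by Aldoa at 2.64, Hif1a at 2.31 and Ldha at 2.22. Mxi1 at -1.25 and Eno2 at -0.95 were the 2 below 0. The enzyme median of 1.22 was above the 0.63 of the hypoxia-induced genes, but with the software's processed signal these were 0.66 and 0.79, so their order is not settled. In the siRNA channel the enzyme median was 0.83 and the hypoxia-induced median 1.06. The value for Eno1 was -0.89 with Eif4g3 siRNA and 0.93 with control siRNA, and for Ero1l it was 1.23 and 0.52.

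**Figure D5:**
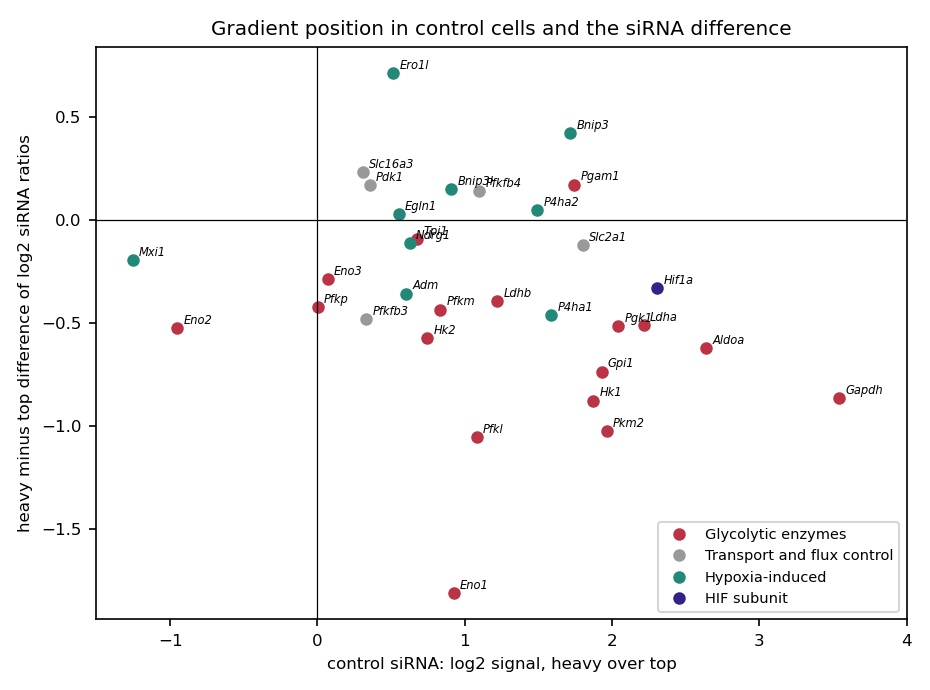
Control-channel log2 signal of heavy over top (horizontal axis) and heavy minus top difference of log2 siRNA ratios (vertical axis) for 32 genes, coloured by role. Enzymes fill the lower part of the plot at control values from -0.95 to 3.54, and Eno1 lies lowest at a control value of 0.93.

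Between control value and difference Pearson's r was -0.24 over the 32 genes and -0.21 over 10723 genes. Within the groups it was -0.17 over 17 enzymes and 0.14 over 9 hypoxia-induced genes. Both axes contain the same control signals, so they are coupled, and no p is given. Gapdh and Aldoa, with the highest control values, had differences of -0.86 and -0.62, whereas Eno1 and Pfkl had -1.81 and -1.06 at control values of 0.93 and 1.08.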

How the data were processed

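The 3 deposited scanner files give a linear intensity per spot and channel, and the software's log10 ratio with its error, per the file headers, which name Agilent Feature Extraction 10.5.1.1. The value table deposited by the authors is on a log2 scale and equals log2 of processed red over green within 2.8e-06, with column medians of -0.09, -0.01 and 0.22. Eif4g3 siRNA is red (Cy5) and control siRNA green (Cy3), per the labels. All 3 arrays share 1 slide and 1 scan time. With limma 3.58.1 in R 4.3.3, signals were background-corrected (normexp, offset 50) and normalized by loess, control spots at weight 0. Outlier spots were left out and spots of a probe averaged. A gene's value is the mean of probes well above background in both channels. A call is 2-fold, a log2 ratio of 1 or -1. Gradient positions used Aquantile normalization. Background correction and normalization were tested on simulated data. The simulated gap between channels was smaller than that of the polysome arrays, so this test does not cover a gap of that size. The number of arrays limits precision. All 35 genes are named. From the further pathway lists, genes past 2-fold in a fraction or in heavy minus top are named, otherwise the 2 highest and 2 lowest heavy ratios. One gene under this rule is not reported here. The genes and lists were chosen with earlier results of these data known.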

Additional observations from a re-analysis of the deposited data

Results flagged for a closer look

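For 3 enzyme genes the log2 ratio of Eif4g3 siRNA to control was below 0 in heavy polysomes and above 0 at the top of the gradient, with at least 2-fold between them. The heavy minus top difference was -1.81 for Eno1, -1.06 for Pfkl and -1.02 for Pkm2, where 0.699% of all genes were lower at 2-fold. A ratio above 0 at the top and below 0 in the heavy fraction was found in 13 of 17 enzymes, against 22.2% of all genes. With 1 array per fraction the difference was not tested.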

How the results depend on the processing

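No paired analysis was possible because each fraction is 1 array with no replicate number to share. Of 197 group values recomputed under alternatives, 167 moved by less than the median SD between probes of a gene (counts, by less than 1.5 times) and 30 moved by more. With the scanner software's ratio the hypoxia-induced median was -0.34 in the top fraction, its gap to the enzymes 0.60 and the genes at 2-fold 1, and in heavy minus top the enzyme median was -0.72, the hypoxia-induced median 0.24 and the gap -0.96. Processed signals with loess gave -0.35, 0.61 and 1 in the top fraction, a gap of -0.46 in the heavy fraction, and -0.71, 0.25 and -0.95 in heavy minus top. An offset of 0 gave 1 gene at 2-fold in the top fraction. That gene was Adm, which was lower, under each of these settings. Of all genes, 1.33% were lower at 2-fold at the top with the software's ratio, 1.34% with processed signals and loess and 0.749% with an offset of 0. Median centring without loess over all spots, the planned form, shifted all genes by 0.62 in the light, -0.73 in the heavy fraction and -0.87 in heavy minus top. All members, enzymes and hypoxia-induced genes then had medians of 0.85, 0.88 and 0.81 in the light fraction, -1.05, -1.16 and -0.92 in the heavy fraction and -1.26, -1.32 and -0.89 in heavy minus top, with 13, 19 and 20 genes at 2-fold. Of all genes, 17.8% were then higher at 2-fold in the light fraction, 26.5% were lower in the heavy fraction and 38.6% were lower in heavy minus top. After these values were seen, centring over measured probes was added beside it, which gave 2 genes at 2-fold and an enzyme median of 0.25 in the light fraction, and moved no other group value beyond that limit. Both genes were higher, where 1.09% of all genes were. The control heavy over top median was 0.83 with median scaling and 0.67 with processed signal. Single genes kept 1 sign under every alternative in 30 of 32 cases in the top, 19 of 34 in the light and 25 of 35 in the heavy fraction. In heavy minus top 22 of 32 did, and the 10 that changed sign were Adm, Bnip3, Bnip3l, Egln1, Ero1l, P4ha2, Pdk1, Pfkfb4, Slc16a3 and the enzyme gene Pgam1. Except where values say so, the cause was not tested. Signal over background limits the dim top array, where ratios are most compressed, with a slope of 0.571 on the software's ratios against 0.721 in the heavy fraction.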

Other observations

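Neighbouring pathways were read in the same arrays. In heavy polysomes, 23 of 27 genes of pyruvate dehydrogenase and the citrate cycle lay below 0 after Eif4g3 siRNA, with a median of -0.20 and none past 2-fold. Of all genes 51.7% lay below 0 there, the share beside which each count below stands. The lowest were Dlst, a subunit of the oxoglutarate dehydrogenase complex, at -0.79 ± 0.15, and Pcx, pyruvate carboxylase, at -0.60 ± 0.22. The highest were Mdh2, mitochondrial malate dehydrogenase, at 0.38 ± 0.20 and Pdk4, a pyruvate dehydrogenase kinase, at 0.21 ± 0.21. Of 8 pentose phosphate genes 6 lay below 0, with a median of -0.21. G6pdx, which encodes the first enzyme of that pathway, was lowest at -0.99 ± 0.22 and H6pd followed at -0.76 ± 0.15, whereas Rpia and Rpe, of the interconversion of pentose phosphates, had 0.55 ± 0.21 and 0.32 ± 0.15. Of 12 glycogen and sugar-phosphate genes 9 lay below 0, with a median of -0.21, from Pgm1 at -0.51 ± 0.21 and Pygb at -0.48 ± 0.15 to Gyg at 0.11 ± 0.21 and Pgm3 at 0.20 ± 0.17.

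The 6 measured glucose and lactate carrier genes outside the 35 all lay below 0 in heavy polysomes, with a median of -0.28. Bsg, the chaperone of lactate carriers, was lowest at -0.89 ± 0.22, Slc16a1 had -0.38 ± 0.14, and Slc2a3 and Slc2a4 had -0.21 ± 0.21 and -0.04 ± 0.09. The 7 other measured isozymes and enzymes of sugar use had a median of -0.06, from Bpgm at -0.21 ± 0.15 to Pfkfb1 at 0.08 ± 0.20 and Galk1 at 0.14 ± 0.21.

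Among 35 other measured hypoxia-induced genes, 21 lay below 0 in heavy polysomes, near the 51.7% of all genes, with a median of -0.11. Ddit4, an inhibitor of mTOR signalling, had -1.03 ± 0.22 in light and -1.46 ± 0.24 in heavy polysomes, and Ccng2, a cyclin of growth arrest, had 1.498 ± 0.25 there. In heavy minus top these were -1.40 ± 0.32 and 1.21 ± 0.33. In the oxygen sensing list 9 of 16 genes lay below 0, also near that share, with a median of -0.05. Os9 had -0.46 ± 0.15 and Arnt2 -0.23 ± 0.23, whereas Tceb1 and Rbx1, of the ubiquitin ligase that removes HIF-1 alpha, had 0.32 ± 0.15 and 0.32 ± 0.12. For all these lists 1 array per fraction gives no test.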
